A study of Mus musculus with 6 samples.

Results

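The 9 genes described here are 4 Janus kinases (Jak1, Jak2, Jak3 and Tyk2) and 5 signal transducers and activators of transcription (Stat3, Stat4, Stat5a, Stat5b and Stat6) in naive CD8 T cells. They were taken by symbol from the count table, which holds 14515 genes; all 9 were in it, and all 9 were among the 9565 genes that had enough counts to be tested. Other members of the STAT family were not analysed here. The cells came from the spleens of 3 Lair1-/- (LAIR-1-deficient) and 3 Lair1+/+ (wild type) mice, untreated as far as the labels say, with 1 library of total RNA per mouse. LAIR-1 is a collagen-binding receptor that restrains leukocytes, and the comparison asks whether its loss alters naive CD8 T cells at baseline. From each mouse, 100000 cells were sorted as CD45+, CD3+ and CD8+ without CD44, along with a further surface marker. The strain, age and sex of the mice, and the kind of Lair1 allele, are not given in the labels.

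Cytokine receptors of this family carry no kinase of their own. They hold JAK kinases on their cytoplasmic tails, and binding of the cytokine brings the kinases together so that they phosphorylate each other, the receptor and then the STAT proteins. Phosphorylated STATs pair up, enter the nucleus and bind DNA. In naive CD8 T cells the pathway is best known for interleukin-7, which signals for survival through JAK1, JAK3 and STAT5. The activity of the pathway lies in phosphorylation, which RNA counts do not measure.

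Library totals lay between 5519748 and 7296424 counts in LAIR-1-deficient and between 7974206 and 9187017 in wild type mice, so every LAIR-1-deficient library was shallower than every wild type one. Lair1 had 2, 1 and 1 counts in LAIR-1-deficient mice 1, 2 and 3, against 58, 32 and 43 in wild type mice 1, 2 and 3. It was the only gene called (log2 fold change -4.58, SE 0.57, edgeR adjusted p = 0.00255), with 0 called higher; the call was lost without wild type mouse 1 (adjusted p = 0.0592). The CD8 chain gene Cd8a was at 939 ± 42.2 CPM in LAIR-1-deficient and 925 ± 60.3 CPM in wild type cells (SD, n = 3 each), where CPM stands for the usual unit of counts scaled to a common library size, here with TMM factors. Cd8b1 was at 1478 ± 28.9 and 1516 ± 55.8 CPM, Cd3e at 1365 ± 247 and 1375 ± 151 CPM, and Cd44 at 15.9 ± 5.37 and 12.5 ± 0.578 CPM, in the same order of groups. Summed markers of other cells were low. The 5 B cell markers together were at 25.3 to 32.6 CPM in LAIR-1-deficient and 30.0 to 32.8 CPM in wild type libraries, led by Cd79b and Cd79a. The summed macrophage, CD4 T cell, dendritic cell, NK cell, neutrophil and erythroid markers each stayed under 7 CPM in every library; Adgre1, Klra8, Ly6g and the globin genes Hba-a1, Hbb-bs and Hbb-bt were not analysed here. In bulk RNA, fewer cells of a kind and less RNA per cell cannot be told apart.

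The genes lie on 7 chromosomes in GRCm38 (mm10), and all are annotated as protein coding. Jak1 spans chr4:101152367-101265282 on the minus strand, Jak2 chr19:29251828-29313080 on the plus strand, Jak3 chr8:71676296-71690575 on the plus strand and Tyk2 chr9:21104068-21131243 on the minus strand. Stat4 spans chr1:51987148-52107189 and Stat6 chr10:127642986-127660957, both on the plus strand. The other 3 STAT genes form a cluster on chromosome 11, with Stat5b at 100780731 to 100850724 (minus), Stat5a at 100859351 to 100885169 (plus) and Stat3 at 100885098 to 100939540 (minus). Stat5b and Stat5a are 8626 bases apart with no annotated gene between them, and the ends of Stat5a and Stat3 overlap by 72 exonic bases on opposite strands. Stat6 shares 40 exonic bases with Nab2, Jak1 shares 4 with Raver2 and Tyk2 shares 554 with the antisense gene 1700084C06Rik, in each case on the opposite strand; 1700084C06Rik had too few counts to be tested, or none. The strand setting of the counting is not given, so reads in these overlaps could be assigned to either gene.

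Stat5a and Stat5b are also close copies of each other, which bears on how far their counts can be separated. Their coding sequences are identical at 2083 of 2291 aligned bases (90.92%), and the longest stretch without a difference is 324 bases long. Of all 50-base stretches of the main Stat5a transcript, 17.1% occur in annotated Stat5b transcripts, and 11.8% of those of Stat5b occur in Stat5a. Of 30-base stretches, 23.7% for Stat5a and 16.5% for Stat5b occur in other genes, mainly each other. Only exact matches were counted, so reads with few differences may still be hard to place. A read from within a shared stretch fits both genes, whereas a read of that length from elsewhere does not match the other gene exactly. The sequences below show both cases, in GENCODE vM21 transcripts Stat5a-203 and Stat5b-202, 5′ to 3′, with bases that differ between the genes in capitals. The first pair is the edge of the longest identical stretch, coding bases 541 to 660 in both, which crosses from exon 5 to exon 6 (chr11:100865496-100874112, plus strand, for Stat5a and chr11:100798612-100801416, minus strand, for Stat5b) and holds 1 difference.
Stat5a: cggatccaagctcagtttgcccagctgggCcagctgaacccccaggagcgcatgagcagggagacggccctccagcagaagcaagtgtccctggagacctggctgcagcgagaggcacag
Stat5b: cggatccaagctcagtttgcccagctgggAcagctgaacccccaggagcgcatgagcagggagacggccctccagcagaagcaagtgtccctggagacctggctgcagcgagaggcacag
The second pair is the 90-base window in which the aligned coding sequences differ most without a gap, at 28 bases, and covers coding bases 88 to 177 in exons 2 and 3 (chr11:100861425-100861769 for Stat5a and chr11:100804978-100808436 for Stat5b).
Stat5a: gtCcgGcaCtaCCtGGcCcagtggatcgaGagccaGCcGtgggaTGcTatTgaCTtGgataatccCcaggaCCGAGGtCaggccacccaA
Stat5b: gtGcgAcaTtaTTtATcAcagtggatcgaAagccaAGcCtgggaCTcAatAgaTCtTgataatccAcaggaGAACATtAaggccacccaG
No 50-base stretch of the main transcript of Jak1, Jak2, Tyk2, Stat3 or Stat6 was found in the transcripts of another gene, on either strand; the overlaps given above that lie outside the main transcript or are shorter than this are not covered by the search. For Jak3, 8.94% of them lie also in Insl3, a hormone gene on the same strand within the Jak3 locus, and for Stat4, 28.6% lie also in Gm28177, an overlapping noncoding transcript annotated on its strand. Insl3 and Gm28177 had too few counts to be tested, or none.

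Per kilobase of the main coding transcript, Jak1 had the highest level of the 9 genes, with a mean of 143 CPM per kb over the 6 libraries. Stat3 followed at 91.8, and its range of 85.7 to 98.3 CPM per kb did not reach that of Jak1, 138 to 151. Stat6 (20.8 CPM per kb), Stat4 (16.9) and Stat5b (13.5) came next; the ranges of Stat6 and Stat4 came close without touching (18.8 to 24.7 against 14.1 to 18.7), and those of Stat4 and Stat5b overlapped. Stat5a (6.76), Jak2 (6.33) and Jak3 (6.11) did not differ beyond the spread between libraries. Tyk2 was lowest at 2.90 CPM per kb, and its highest library (3.28) stayed below the lowest of Jak3 (5.43). Divided by all annotated exons of a gene instead, Jak1 stayed first (97.3 CPM per kb), Stat3 second (43.5) and Tyk2 last (2.04), while Stat5a (3.42) fell behind Jak2 (6.33) and Jak3 (4.59). Which part of a transcript the reads cover is not given in the sources used here, so this order holds only if the counts grow with transcript length. Undivided by length, Jak1 (mean 703 CPM), Stat3 (414) and Tyk2 (14.0) kept their places. Stat5b (70.2 CPM) then came before Stat4 (50.5), and Jak2 (31.9) before Stat5a (24.4).

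**Figure D1:**
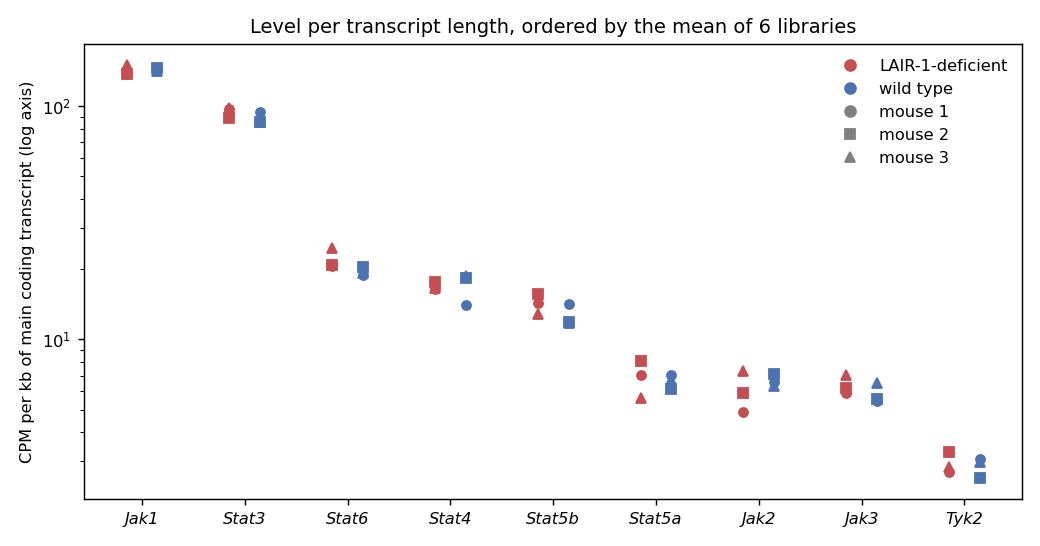
Level of each JAK and STAT gene in CPM per kilobase of its main coding transcript, on a log axis, for 3 LAIR-1-deficient (left, red) and 3 wild type (right, blue) libraries, with symbols for mouse number. Jak1 and Stat3 stand above the other 7 genes in all 6 libraries, and Tyk2 is lowest in all 6.

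None of the 9 genes was called between the genotypes. In edgeR's quasi-likelihood test, adjusted over all genes, 0 of 9 passed at an adjusted p under 0.05 (0.0105% of all genes tested passed, in either direction), and 0 of 9 had an unadjusted p under 0.05 (3.25% of all genes). DESeq2 and limma-voom also called 0 of the 9. Fold changes, LAIR-1-deficient over wild type, were positive for 6 and negative for 3 genes, with a median log2 fold change of 0.05 over the 9 and 0.00059 over all genes tested. Without LAIR-1-deficient mouse 2 the median of the 9 was -0.0012, with 4 positive and 5 negative. For all 9 genes the 95% interval stayed within a 1.5-fold change up or down, as it did for 63.2% of all genes tested. The adjusted p was 0.9999 for each of the 9 genes, and the smallest unadjusted p among them was 0.112, for Stat6.

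Among the kinases, Jak1, which serves nearly all receptors of the family that signal in T cells, was also the most precisely measured. It was at 677, 675 and 740 CPM in LAIR-1-deficient mice 1, 2 and 3 and at 710, 719 and 698 CPM in wild type mice 1, 2 and 3. The wild type libraries lay inside the range of the LAIR-1-deficient ones. Its log2 fold change was -0.02 (SE 0.08), with a 95% interval of 0.870 to 1.11 for the ratio of LAIR-1-deficient to wild type.

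Jak3 pairs with the common gamma chain and so acts with Jak1 at the receptors for interleukins 2, 4, 7, 15 and 21. Its level was 23.8, 24.9 and 28.3 CPM in LAIR-1-deficient and 21.8, 22.3 and 26.3 CPM in wild type mice. In each group mouse 3 was highest, and the groups overlapped. This gave a log2 fold change of 0.13 (SE 0.14; ratio 1.09, 95% interval 0.888 to 1.35), which ran from 0.05 without LAIR-1-deficient mouse 3 to 0.22 without wild type mouse 3.

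Jak2, a kinase of the interferon gamma receptor and of interleukin-12 signalling, had the widest range of the 9 genes over the 6 libraries, 1.49-fold. It was at 24.5, 29.5 and 36.6 CPM in LAIR-1-deficient mice, which held both the lowest and the highest library, and at 32.9, 35.8 and 31.7 CPM in wild type mice. The SD was 20.2% of the mean in LAIR-1-deficient and 6.20% in wild type mice, where counting error alone gives 7.05% and 5.87%. The log2 fold change was -0.15 (SE 0.15). It was negative in every fit run but depended on LAIR-1-deficient mouse 3 and mouse 1: it was -0.32 without mouse 3 and -0.02 without mouse 1 of that group.

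Tyk2, which acts at the receptors for type I interferon and interleukin-12, was at 12.97, 15.8 and 13.7 CPM in LAIR-1-deficient and 14.9, 12.3 and 14.4 CPM in wild type mice. Its spread of 10.5% and 10.05% of the mean was about that of counting error, 10.4% and 9.15%. The log2 fold change was 0.03 (SE 0.17); it was negative without mouse 2 of either group (-0.052 without the LAIR-1-deficient and -0.05 without the wild type one) and 0.14 without mouse 1 of both groups. Its interval of 0.792 to 1.32 for the ratio was the widest of the 9, at 89 to 128 counts per library.

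**Figure D2:**
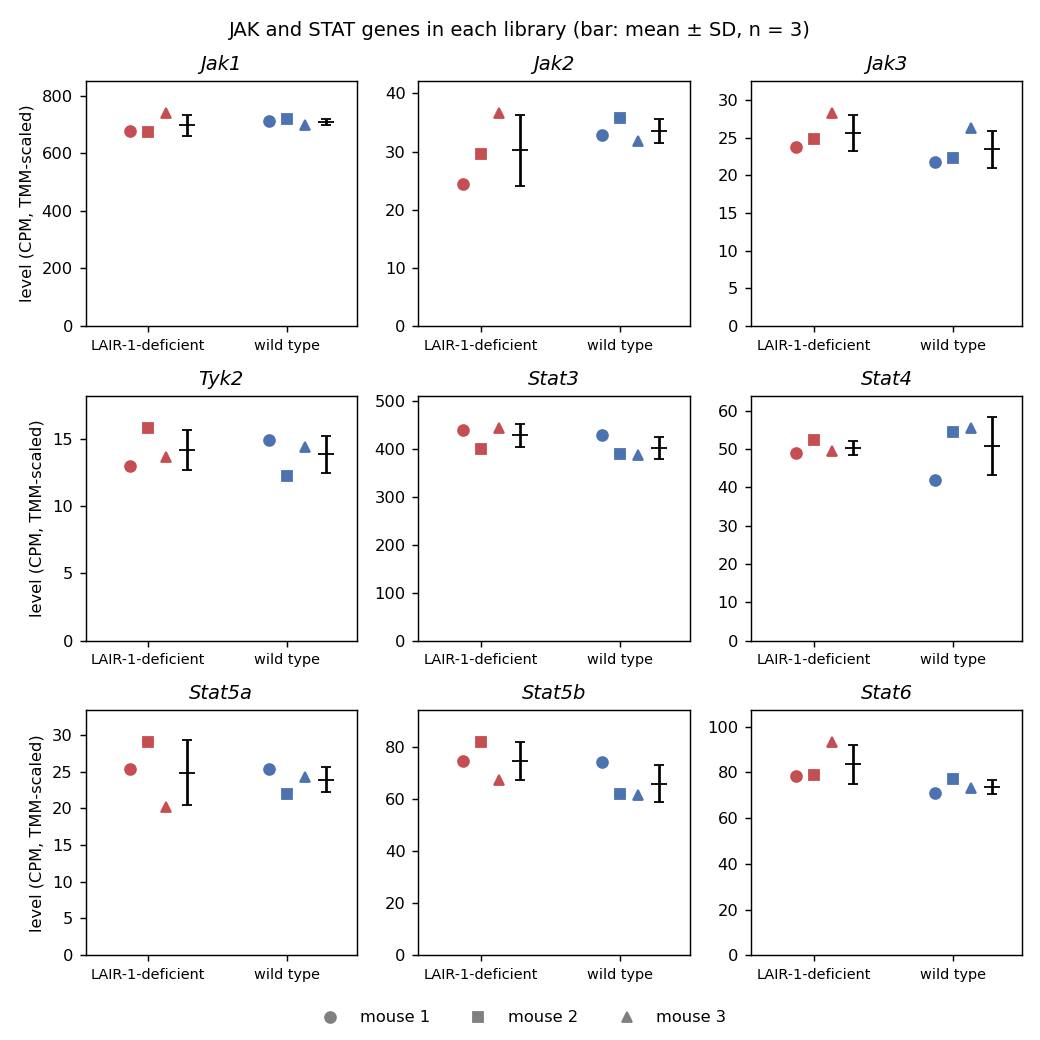
CPM of each of the 9 genes in 3 LAIR-1-deficient (left, red) and 3 wild type (right, blue) libraries, with symbols for mouse number and a black mean ± SD beside each group; each panel starts at 0. The groups overlap for 8 genes, and for Stat6 the lowest LAIR-1-deficient library (78.3 CPM) lies just above the highest wild type library (77.0 CPM).

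Among the transcription factors, Stat6, which acts downstream of the interleukin-4 receptor, was the one gene of the 9 whose groups did not overlap. It was at 78.3, 79.0 and 93.2 CPM in LAIR-1-deficient mice, against 71.0, 77.0 and 73.0 CPM in wild type mice. The lowest LAIR-1-deficient library was just above the highest wild type one, and mouse 3 stood above the other LAIR-1-deficient mice. Stat6 had a log2 fold change of 0.18 (SE 0.11, ratio 1.13, 95% interval 0.968 to 1.33), and 0.09 without LAIR-1-deficient mouse 3. Groups without overlap were found for 8.38% of all genes tested, so 1 of 9 is near the background.

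Stat5b and Stat5a relay interleukin-7, interleukin-15 and interleukin-2 signals. Stat5b was at 74.5, 81.8 and 67.1 CPM in LAIR-1-deficient and 74.2, 62.0 and 61.6 CPM in wild type mice, with overlap through mouse 3 of the first and mouse 1 of the second group. Its log2 fold change was 0.18 (SE 0.12, ratio 1.13, 95% interval 0.952 to 1.34). Stat5a was at 25.4, 29.0 and 20.2 CPM in LAIR-1-deficient mice, which again held both extremes, and at 25.4, 22.0 and 24.2 CPM in wild type mice. Its log2 fold change was 0.05 (SE 0.15). It turned negative without LAIR-1-deficient mouse 2 (-0.07) and close to 0 without wild type mouse 2 (-0.0013).

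Stat3, the factor of interleukin-6, interleukin-10 and interleukin-21 signalling, was at 440, 400 and 444 CPM in LAIR-1-deficient and 428, 388 and 387 CPM in wild type mice. The groups overlapped, since LAIR-1-deficient mouse 2 lay below wild type mouse 1. Its log2 fold change was 0.09 (SE 0.09; ratio 1.07, 95% interval 0.937 to 1.22). For Stat3 the SD, at 5.63% and 5.83% of the mean, exceeded the counting error of 1.87% and 1.70%.

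Stat4 is activated by interleukin-12 and type I interferon and drives interferon gamma production. It was at 49.0, 52.5 and 49.6 CPM in LAIR-1-deficient mice, all of which lay inside the wild type range of 42.0, 54.5 and 55.6 CPM. The spread was 3.67% of the mean in LAIR-1-deficient and 14.9% in wild type mice, with mouse 1 the low wild type library. Counting error alone gives 5.48% and 4.75%, so the LAIR-1-deficient spread was below counting error. The log2 fold change was -0.01 (SE 0.13) and changed sign in 3 of the 6 fits that left out 1 library.

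**Figure D3:**
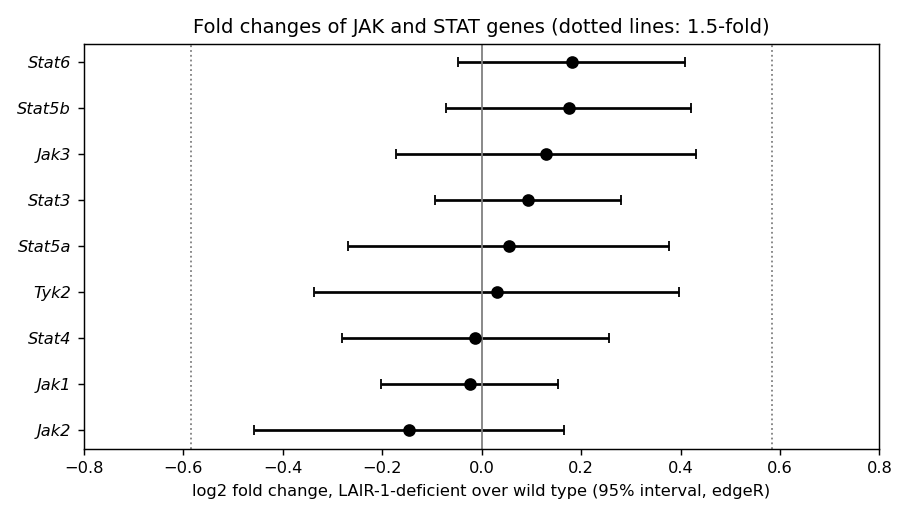
Log2 fold change of each gene, LAIR-1-deficient over wild type, with its 95% interval from edgeR (3 libraries per group); the dotted lines mark 1.5-fold. All 9 intervals include 0 and lie between the dotted lines, and they are narrowest for Jak1 and Stat3.

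The highest of the 6 libraries was a LAIR-1-deficient one for 8 of the 9 genes. It was mouse 3 for Jak1, Jak2, Jak3, Stat3 and Stat6, and mouse 2 for Tyk2, Stat5a and Stat5b. Over all genes tested, the highest library was a LAIR-1-deficient one for 54.0%, with mouse 3 highest for 17.2% and mouse 2 for 17.7%. The lowest library was a LAIR-1-deficient one for 3 of the 9 genes and for 54.7% of all genes tested. Only Stat4 was highest in a wild type library, mouse 3. The median of the 9 genes, after each gene's mean over the 6 libraries was subtracted on the log2 CPM scale, was -0.04, 0.03 and 0.07 in LAIR-1-deficient mice 1, 2 and 3 and 0.05, -0.09 and 0.00 in wild type mice 1, 2 and 3, so the groups overlapped.

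Shares within a library do not depend on how libraries are scaled. Stat5a made up 25.4, 26.2 and 23.2% of the summed Stat5a and Stat5b counts in LAIR-1-deficient mice and 25.5, 26.2 and 28.2% in wild type mice. The exact 95% binomial intervals, which cover counting error only, lay between 19.9 and 29.8% over the LAIR-1-deficient and between 22.5 and 31.6% over the wild type libraries, so they overlapped. The group means were 24.9% ± 1.56 in LAIR-1-deficient and 26.6% ± 1.44 in wild type cells (SD, n = 3 each). The difference was -1.72 percentage points (two-sided exact permutation p = 0.2, 0.4 after adjustment over the 2 shares tested; 0.1 is the smallest that 3 against 3 allows). Jak1 made up 91.7, 90.6 and 90.4% of the counts of the 4 kinases in LAIR-1-deficient and 91.1, 91.1 and 90.6% in wild type mice. The means were 90.9% ± 0.708 and 90.9% ± 0.273 in the same order (SD, n = 3 each; two-sided exact permutation p = 0.9, adjusted 0.9). These shares are of counts, not of counts per length.

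**Figure D4:**
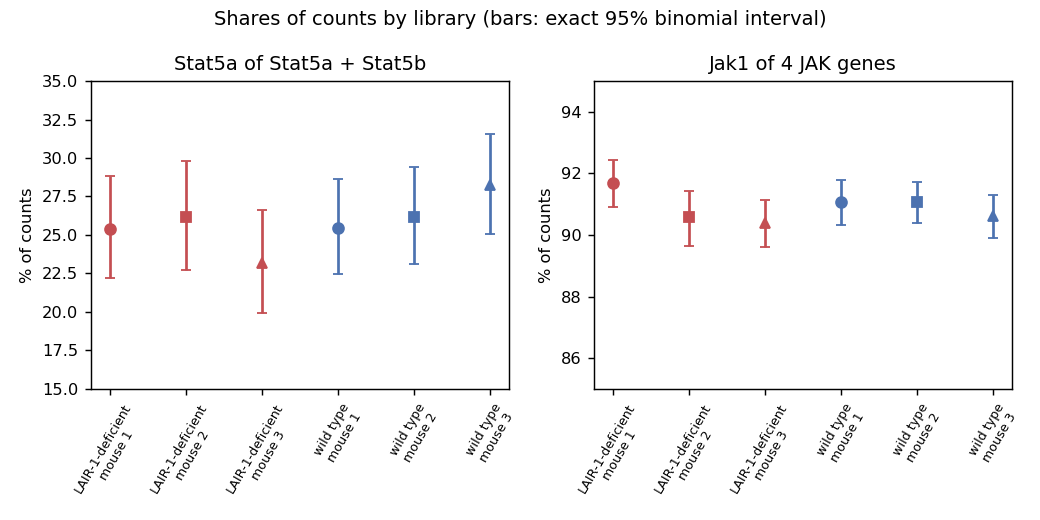
Share of Stat5a in the counts of Stat5a and Stat5b (left) and of Jak1 in the counts of the 4 kinases (right), in percent, in LAIR-1-deficient (red, left of each panel) and wild type (blue) libraries with exact 95% binomial intervals; the axes do not start at 0. Stat5a made up between 23.2 and 28.2% and Jak1 between 90.4 and 91.7%.

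Receptors that work through these kinases were likewise without a call. Of 8 genes for chains of receptors that use JAK1 with JAK3, 6 were tested, 2 with a positive and 4 with a negative fold change. The median log2 fold change was -0.08, and 0.0013 with 3 and 3 without LAIR-1-deficient mouse 2. Il2rg, the common gamma chain, was at 3313 ± 51.9 CPM in LAIR-1-deficient and 3215 ± 86.8 CPM in wild type cells. Il7r, the chain specific to the interleukin-7 receptor, was at 220 ± 22.5 CPM in LAIR-1-deficient and 236 ± 9.74 CPM in wild type cells. Il21r had a log2 fold change of -0.11. Il2ra, the inducible chain of the interleukin-2 receptor, had 2 to 6 counts in any library and was not tested. Of 16 chains of receptors that work with JAK1, JAK2 or TYK2, 11 were tested, with 4 positive and 7 negative fold changes. The median was -0.04, and 0.01 with 6 and 5 without wild type mouse 1. Of these 11 genes, Ifngr1, a chain of the interferon gamma receptor, was at 120 ± 8.38 CPM in LAIR-1-deficient and 118 ± 5.29 CPM in wild type cells. Il27ra, a chain of the interleukin-27 receptor, was at 92.0 ± 12.9 and 88.5 ± 5.73 CPM in the same order. For Il6ra, part of the interleukin-6 receptor, the log2 fold change was -0.22, with a 95% interval from -0.47 to 0.03. Ifnar1, a chain of the type I interferon receptor, was at 38.9, 34.7 and 38.3 CPM in LAIR-1-deficient mice, below the 43.4, 41.0 and 45.8 CPM in wild type mice, and did not pass (log2 fold change -0.22). It was the 1 gene of these 11 without overlap of the groups, beside 8.38% of all genes.

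Of 18 inhibitors of the pathway, 17 were tested and 0 called, 8 with a positive and 9 with a negative fold change (median log2 fold change -0.03; 0.02 with 9 and 8 without wild type mouse 1). Pias1, an inhibitor of STAT proteins, was at 86.8, 93.4 and 111 CPM in LAIR-1-deficient mice, against 115, 112 and 117 CPM in wild type mice. It had the smallest unadjusted p of the list (0.0377 in edgeR's test, log2 fold change -0.24, adjusted p = 0.9999). Socs3, which is induced by STAT3 and blocks JAK kinases, was at 42.1, 39.8 and 37.7 CPM in LAIR-1-deficient and 43.5, 47.6 and 43.8 CPM in wild type mice (log2 fold change -0.17). Groups did not overlap for 3 of the 17 genes, Pias1, Socs3 and Ptpn11, beside 8.38% of all genes. Ptprc, which encodes CD45, a phosphatase that can act on JAK kinases, was at 594 ± 76.4 CPM in LAIR-1-deficient and 605 ± 94.9 CPM in wild type cells, and Ptpn6, which encodes the phosphatase SHP-1, at 229 ± 24.3 and 229 ± 18.6 CPM.

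Known target genes showed no called member either. Of 14 genes known as STAT5 targets in T cells, 12 were tested, 7 with a positive and 5 with a negative fold change (median log2 fold change 0.0067; -0.06 with 5 and 7 without LAIR-1-deficient mouse 1, and -0.03 with 4 and 8 without wild type mouse 2). The survival genes Bcl2 and Mcl1 had log2 fold changes of -0.10 and 0.01, the growth regulator Myc 0.15 and the cyclin Ccnd2 0.08. Of 14 genes known as targets of STAT3, STAT4 or STAT6, 9 were tested, 6 positive and 3 negative (median 0.03; -0.02 with 3 and 6 without LAIR-1-deficient mouse 1). Bcl3, an atypical member of the NF-kappaB inhibitor family, was at 25.2, 35.8 and 27.6 CPM in LAIR-1-deficient and 23.5, 25.1 and 24.1 CPM in wild type mice, without overlap and without a call (log2 fold change 0.28). Groups did not overlap for 2 of these 9 genes, Bcl3 and Socs3, beside 8.38% of all genes. Il4ra had a log2 fold change of 0.08. Tbx21, a STAT4 target of effector cells, was too low to be tested, at 4 to 8 counts in LAIR-1-deficient and 7 to 20 in wild type libraries. Some genes stand in more than 1 list, Socs3 and Il4ra among them. Il12rb2, Il23r, Il13ra1, Osmr and Il21 were not analysed here.

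**Figure D5:**
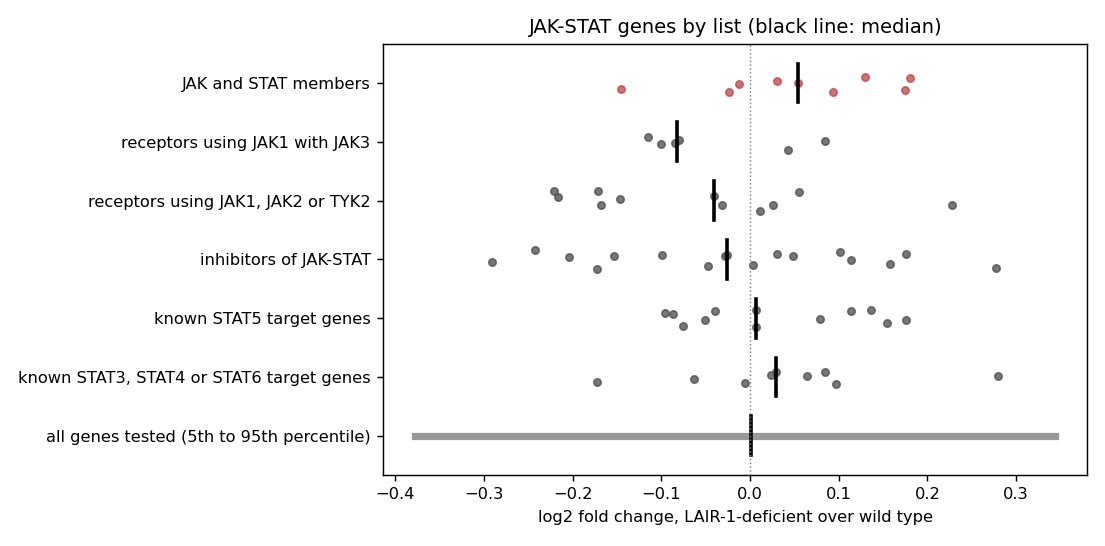
Log2 fold change, LAIR-1-deficient over wild type, of each tested gene (dots) in the JAK and STAT set (red) and in 5 lists of receptors, inhibitors and target genes (grey), with medians as black lines; the grey bar spans the 5th to the 95th percentile of all genes tested, -0.38 to 0.34. The list medians lie between -0.08 and 0.05.

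Mouse 1 of both genotypes stood apart in immediate early genes, which are switched on quickly by antigen receptor signals among other stimuli. What set mouse 1 apart was not tested. The list median on the centred log2 scale was 1.11 in LAIR-1-deficient and 0.76 in wild type mouse 1. In the 4 other libraries it lay between -0.59 and -0.27. Cd69 was at 973, 169 and 210 CPM in LAIR-1-deficient and 907, 191 and 232 CPM in wild type mice. Nr4a1 was at 588, 78.3 and 56.7 CPM in LAIR-1-deficient and 473, 80.4 and 113 CPM in wild type mice. Of the list, 19 of 23 genes were tested and 0 called, with a median log2 fold change of 0.04; Junb had 0.02, Jund 0.28 and Ier3 -0.32. That median rested on mouse 1. It was -0.67 without LAIR-1-deficient mouse 1 (0 positive and 19 negative) and 0.62 without wild type mouse 1 (18 and 1). Without mouse 1 of both groups it was -0.16 (2 and 17). In that last fit 6 of the 19 genes had an unadjusted p under 0.05 in edgeR's test, and 0 were called. Of all genes tested in the same fit, 440 of 9707 had such a p. No JAK or STAT gene of the 9 was highest in a mouse 1 library, as 36.1% of all genes tested were. The lowest of the 6 libraries was LAIR-1-deficient mouse 1 for Jak2, and wild type mouse 1 for Jak3, Stat4 and Stat6; a mouse 1 library was lowest for 37.1% of all genes. Without mouse 1 of both groups, 0 of the 9 genes were called, and their median log2 fold change was 0.12.

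Jak2, Stat5a and Stat5b had the widest range of the 9 genes over the libraries, and the genes most like them in pattern were looked up. Likeness was the root mean square difference of log2 CPM over the 6 libraries, after each gene's mean was subtracted, against 6369 other genes at 10 CPM or more. Nearest to Jak2 were Acp1 (0.055) and mtAtp8 (0.055), nearest to Stat5a were Med13l (0.040) and Ufm1 (0.042), and nearest to Stat5b were Hsd17b4 (0.033) and Chpf (0.042). With 6 libraries and so many genes, close matches are found by search alone, and these are given as a description.

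The upstream sequence of the genes was searched for TTCNNNGAA, a core sequence that STAT dimers bind, which reads the same on both strands. Other spacings were not searched. None of the 12 RefSeq windows of 250 bases before a start site of the 9 genes (GRCm38.p6) held it, beside 7.02% of all 32851 such windows. These letters can lie outside this window.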

How the data were processed

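The deposited table holds raw read counts per gene as whole numbers, 1 column per mouse. The submitters' processing notes name BWA, without a version, and the build mm10; per the labels, TruSeq small RNA primers served for the libraries. Not given in the sources used here are the gene annotation, the tool that counted, its strand setting and whether reads carried molecular identifiers; intervals from counts therefore cover only counting error. Sample descriptions matched the columns. The 4 spike-in rows (at most 2 counts in any library) were left out. All pairs of libraries differed by more than sampling noise (chi-square per gene 4.99 to 23.4, where noise gives about 1). The smallest values lay between genotypes: 4.99 for LAIR-1-deficient mouse 2 with wild type mouse 3, and 5.04 for LAIR-1-deficient mouse 3 with wild type mouse 2. LAIR-1-deficient mouse 1 was nearest to wild type mouse 1 (7.14), against 14.3 and 16.9 with mice 2 and 3 of its group. Labels give 1 mouse per library.

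Genes were filtered with filterByExpr (smallest count 10), scaled by TMM and tested in edgeR 4.0.16 (R 4.3.3) with a robust two-sided quasi-likelihood F test without covariates, adjusted by Benjamini-Hochberg over 9565 genes; SEs derive from the F statistic. The common biological variation was 0.135. DESeq2 1.42.0 and limma 3.58.1 served as alternatives, with other scalings, filters and left-out libraries. Shares were compared by exact permutation. The steps were tested on simulated counts. Coordinates and transcripts are from GENCODE vM21; the main transcript is the one with the longest coding part, and promoter windows are from RefSeq. Pathway genes named are, per list, those with the smallest p and the most abundant. Tbx21, Ptpn11 and Il2ra were chosen after their values were seen, as were the patterns by library. Members, lists and tests were chosen with earlier results of these data known. A surface marker of the sort is left out of the results.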

Additional observations from a re-analysis of the deposited data

How the results depend on the processing

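Across 15 alternatives of scaling, filter, test, block and left-out libraries, 0 of the 9 genes were called in any, and the smallest unadjusted p of a member was 0.0503 (Stat5b without wild type mouse 1 in edgeR's test). Signs changed for Stat4 (-0.13 to 0.057 when 1 library was left out), Stat5a (-0.065 to 0.19) and Tyk2 (-0.052 to 0.085, and 0.14 without mouse 1 of both groups), and for no other member; the cause was not tested. The Jak1 share difference ran from -0.43 to 0.22 percentage points and that of Stat5a from -2.35 to -0.85 when 1 library was left out. Over all genes, 1 was called, against 3 without a low-count filter and 0 with limma-voom. It was 0 without mouse 1 of both groups and 0 to 2 when 1 library was left out. With a smallest count of 30 the number was 0, but Lair1 fell below that filter and was not tested. Lair1 had an adjusted p of 0.142 with limma-voom and 0.0712 without mouse 1 of both groups. Mouse numbers were tried as a replicate block, since both groups use 1 to 3. Same-numbered deviations from the group means correlated at 0.29, 0.01 and 0.07 across genes, and the mouse 1 pair was the highest of the 9 pairs. LAIR-1-deficient mouse 2 with wild type mouse 3 had 0.18, and LAIR-1-deficient mouse 3 with wild type mouse 2 had 0.09. Not every same-numbered pair exceeded 0.1, and the labels name no batch, so the main fit did not treat the samples as paired. Whether mice of unlike number were matched across genotypes was not tested, and no such block was run. With the block by mouse number 1 gene and 0 of the 9 were called. The median log2 fold change of the 9 was then 0.05, and that of the immediate early genes -0.07. Tyk2 had the fewest counts of the 9, 89 to 128 per library, and the widest interval.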
